A study of Mus musculus with 6 samples.

Results

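MHC class I is represented here by 10 genes: B2m, the classical heavy chains H2-K1 and H2-D1, the Q region heavy chains H2-Q4, H2-Q6 and H2-Q7, the T region heavy chains H2-T22 and H2-T23, the peptide transporter subunit Tap1, and the immunoproteasome subunit Psmb8. They were chosen by name, with earlier results of these data known. They were matched to the gene symbols of the deposited matrices, and all 10 of the 10 were found among 32287 genes. Cells came from 1 cerebral hemisphere of each of 3 WT and 3 TgApp ArcSwe mice (labelled AppArcSwe), all of them untreated 12-month-old males, and each mouse gave 1 single-cell library. WT mice were C57BL/6J. TgApp ArcSwe mice carry an App transgene and were included by the study because they develop amyloid on the vessel walls as well as in plaques at this age. The promoter of the transgene is not given in the sources used here. Vessel fragments were captured with beads against CD31, an endothelial surface protein, and the droplet libraries count each captured transcript once, by its unique molecular identifier (UMI), from the 3′ end.

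MHC class I molecules carry peptides from inside the cell to its surface, where CD8 T cells and natural killer cells read them. Each molecule is a heavy chain bound to beta-2-microglobulin, the product of B2m. Peptides are cut by proteasomes, including the immunoproteasome that holds Psmb8, and are pumped into the endoplasmic reticulum by the transporter of Tap1 and Tap2, where the loading complex places them on the heavy chain. H2-K1 and H2-D1 are the classical, peptide-presenting heavy chains of C57BL/6 mice. H2-T23 encodes Qa-1, a ligand of NKG2A receptors on natural killer and CD8 T cells, H2-Q7 encodes Qa-2, and H2-T22 encodes a ligand of some gamma-delta T cells. Class I genes are known targets of interferons and of NF-kappaB, and in the normal brain they are best known from endothelial cells and microglia rather than from neurons.

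B2m lies on chromosome 2 and the other 9 genes lie on chromosome 17, in the H2 complex (build mm10, positions of GENCODE vM21). H2-K1 (chr17:33996017-34000347, minus strand), Tap1 (chr17:34187553-34197225, plus strand) and Psmb8 (chr17:34197721-34201454, plus strand) come first, followed by H2-D1 (chr17:35262730-35267499), H2-Q4 (chr17:35379617-35385290), H2-Q6 (chr17:35424850-35430055) and H2-Q7 (chr17:35439155-35443773), all on the plus strand. H2-T23 (chr17:36029773-36032855) and H2-T22 (chr17:36037128-36042747) lie farthest along, on the minus strand. All 10 are annotated as protein coding.

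The class I genes share short control elements upstream of their start sites, and those stretches are shown because the genes are compared with each other below. The sequences come from RefSeq on GRCm38.p6, in which all 10 genes were matched, and each is 60 bases long and reads 5′ to 3′ in the direction of the gene. Capitals mark 3 elements, each searched on both strands: GGGGATTCCCC, the NF-kappaB site of the class I enhancer, and AGTTTCACTT, the interferon-stimulated response element beside it, both as read from the promoter of H2-K1, and a general response element made of GAAA, any 2 bases and GAAA again. The AGTTTCACTT form and the stretch to print were chosen after the sequences had been read. The windows are chr2:122147508-122147567 (plus strand) for B2m, chr17:34000420-34000479 (minus) for H2-K1, chr17:35262902-35262961 (plus) for H2-D1, chr17:35379422-35379481 (plus) for H2-Q4, chr17:35424656-35424715 (plus) for H2-Q6, chr17:35439000-35439059 (plus) for H2-Q7, and chr17:36042916-36042975 (minus) for H2-T22.
B2m: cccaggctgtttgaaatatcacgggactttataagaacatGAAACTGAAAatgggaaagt
H2-K1: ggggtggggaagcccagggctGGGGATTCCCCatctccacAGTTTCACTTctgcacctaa
H2-D1: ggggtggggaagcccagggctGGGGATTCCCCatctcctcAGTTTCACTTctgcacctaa
H2-Q4: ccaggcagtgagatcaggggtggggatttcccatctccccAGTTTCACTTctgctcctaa
H2-Q6: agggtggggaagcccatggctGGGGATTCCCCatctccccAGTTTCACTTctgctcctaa
H2-Q7: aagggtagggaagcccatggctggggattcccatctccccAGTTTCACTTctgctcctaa
H2-T22: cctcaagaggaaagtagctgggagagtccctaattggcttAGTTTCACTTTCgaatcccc

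GGGGATTCCCC was found within 250 bases upstream of the start of H2-K1, H2-D1 and H2-Q6, and in 10 of 32851 promoters in all (0.0304%). AGTTTCACTT was found in H2-K1, H2-D1, H2-Q4, H2-Q6, H2-Q7 and H2-T22, and in 42 of all promoters (0.128%). The general element was found in B2m, H2-T22 and H2-T23, and in 978 of all promoters (2.98%). In H2-T22 it overlaps AGTTTCACTT on the other strand. CCAAT was found in all members except Psmb8, and in 33.8% of all promoters. These matches describe letters in a window. Binding of a factor was not measured.

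The heavy chain genes resemble each other, so that part of their 3′ ends cannot be told apart by short reads. Of the 90-base stretches in the last 500 bases of the annotated transcripts, 26.9% of those of H2-Q6 also occur in another gene, 21.4% in H2-Q7. The share was 13.2% for H2-T22, all with H2-T10, 8.93% for H2-D1, mostly with H2-Q1, and 7.30% for H2-Q4. It was 4.40% for H2-T23, 3.87% for H2-Q7, 2.31% for H2-K1, and 0% for B2m, Tap1 and Psmb8. H2-Q6 and H2-Q7 values are therefore uncertain as separate genes. They are summed only in the share of cells with a UMI of either. Levels, fold changes and counts of members below treat them separately, and no summed level was tested.

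The 6 libraries held 49059 cells and 261717152 UMIs. Of these, 44112 cells with 500 to 4500 genes and under 10% mitochondrial counts were kept, 20079 from WT and 24033 from TgApp ArcSwe mice, with library medians between 2922 and 5542 UMIs a cell. They held 803442 UMIs of the 10 members. TgApp ArcSwe replicate 2 was the smallest library, with 2379 cells, and TgApp ArcSwe replicate 3 the largest, with 13389. Of 48775 barcodes, 283 occurred in more than 1 library. Cells were clustered without the members and the other listed antigen presentation genes and named from fixed markers, giving 24193 barrier endothelial cells, of which 17312 were capillary, 4472 arteriolar, 1121 large arterial and 955 venous, and 636 fenestrated endothelial cells, 512 pericytes, 3267 smooth muscle cells, 6509 microglia, 289 other myeloid cells, 296 T and NK cells and 604 B cells. Names rest on markers and are to be read as endothelial-like, microglia-like and so on. 2082 cells stayed unnamed. The mouse App gene, which does not test for the transgene, had a level of 1666 to 1806 CPM (UMIs of a gene scaled to the same UMI total in every class and mouse) in the barrier endothelial cells of WT mice and at 1633 to 1822 in those of TgApp ArcSwe mice.

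UMIs were summed per mouse and class, and levels are given as CPM of that sum. The first comparison asks where along the vessel tree, and in which of its neighbouring cells, the class I genes stood high or low. Over all 6 mice, B2m was highest in T and NK cells, at 2247 ± 177 CPM (SD, n = 6), and lowest in smooth muscle cells, at 179 ± 57.3 (SD, n = 6). Between these came fenestrated endothelial cells at 2035 ± 551, venous at 1806 ± 447, microglia at 1782 ± 865, other myeloid cells at 1748 ± 333 (n = 5), large arterial endothelial cells at 1624 ± 326, B cells at 1522 ± 148, arteriolar at 1343 ± 340, capillary at 1137 ± 310 and pericytes at 533 ± 202 CPM (SD, n = 6 where no other number is given). Down to arteriolar cells the ranges of neighbouring classes overlapped and no pair of neighbours was ordered the same way in all mice. Arteriolar cells were above capillary cells in 6 of 6 mice and pericytes above smooth muscle cells in 6 of 6 (exact two-sided sign-flip permutation test, p = 0.0312 for each, the smallest that 6 mice allow). In all, 100 such neighbouring pairs were compared over the 10 genes, 24 had a p of 0.0312, and none passed the Benjamini-Hochberg adjustment over the 100 (adjusted p = 0.13).

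**Figure D1:**
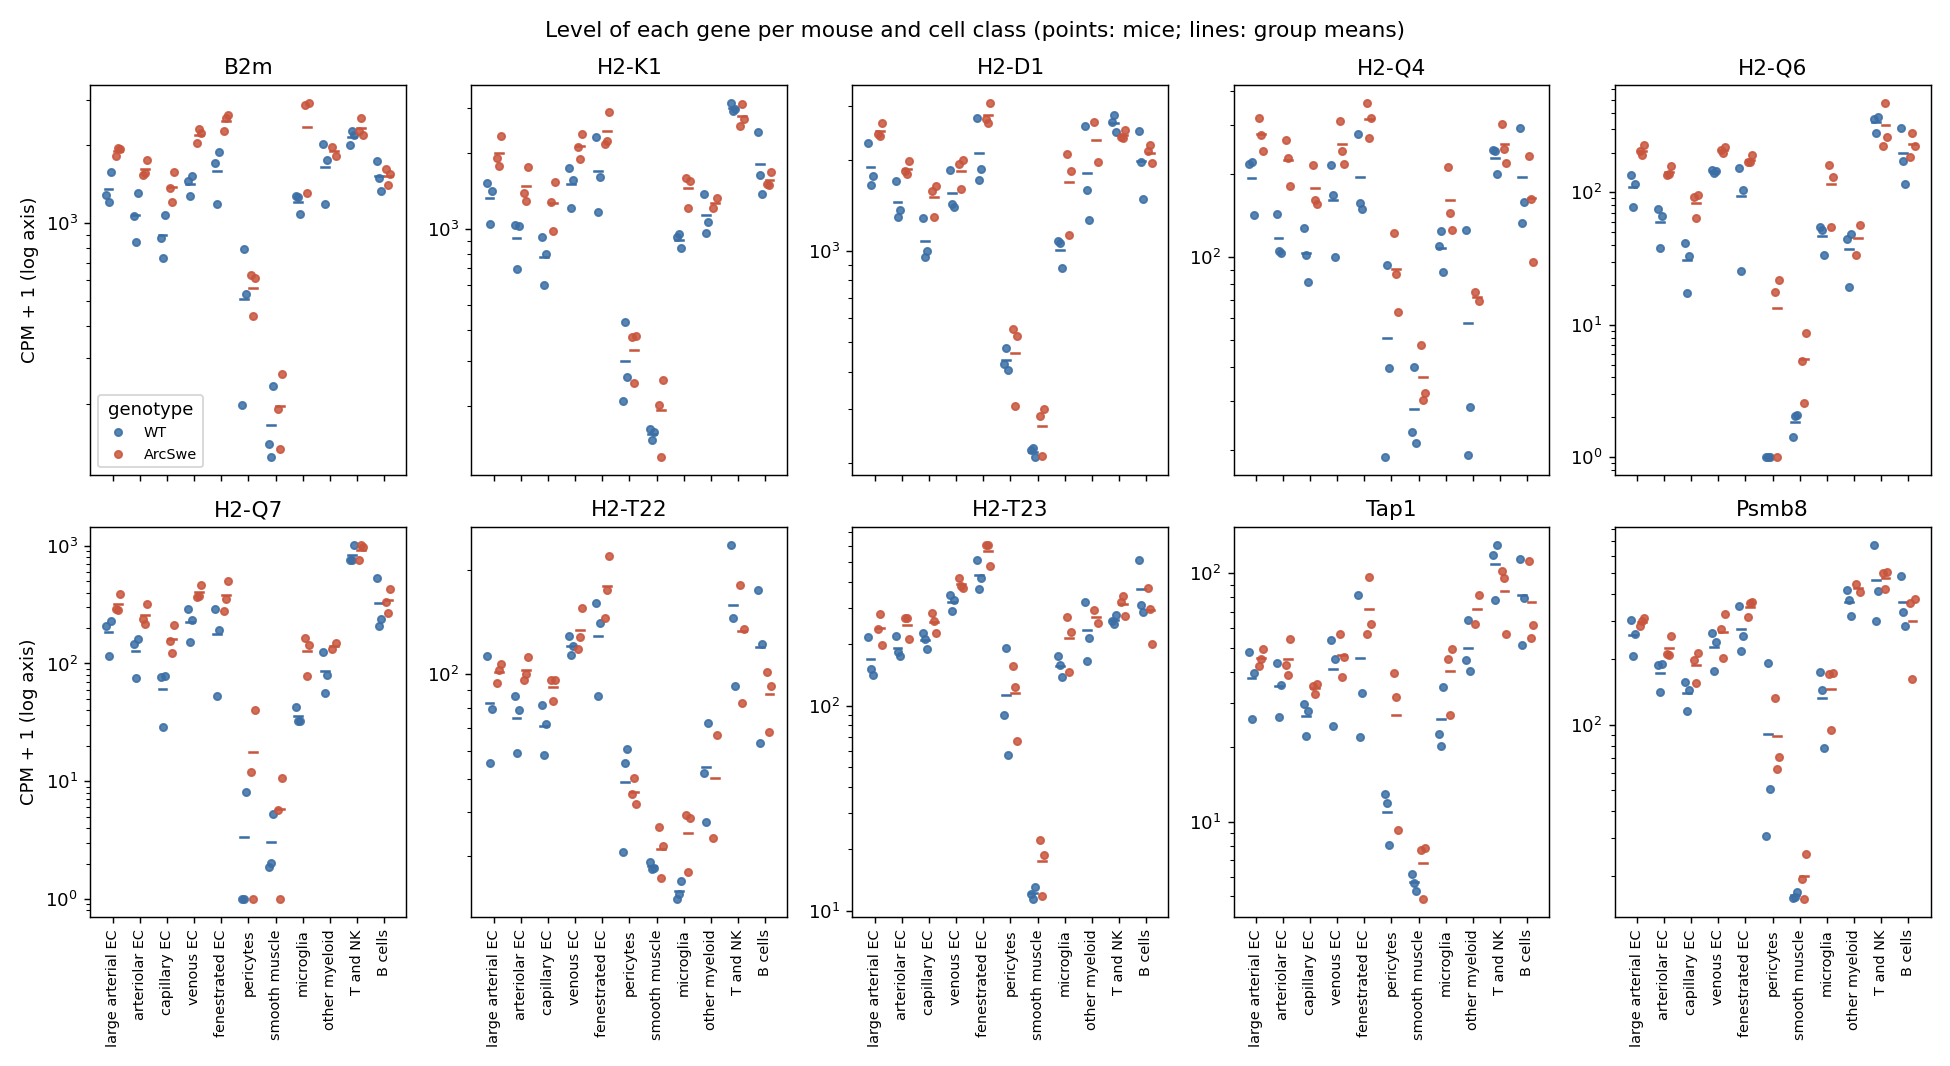
Levels of the 10 class I genes in 11 cell classes, as CPM + 1 on a log axis, with 1 point per mouse (WT blue, TgApp ArcSwe red) and a short line at each genotype's mean. Smooth muscle cells hold the lowest B2m (179 CPM on average) and T and NK cells the highest (2247 CPM).

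Over T and NK, endothelial and mural cells, H2-K1 and H2-D1 followed the same broad order. Microglia, B cells and other myeloid cells are not listed for these genes here. H2-K1 went from 2912 ± 232 CPM in T and NK cells to 2065 ± 601 in fenestrated, 1817 ± 412 in venous, 1665 ± 441 in large arterial, 1196 ± 365 in arteriolar and 1021 ± 337 in capillary endothelial cells, 316 ± 89.4 in pericytes and 173 ± 45.9 in smooth muscle cells (SD, n = 6). H2-D1 stood at 2530 ± 170 CPM in T and NK cells, 2463 ± 547 in fenestrated, 2190 ± 394 in large arterial, 1698 ± 262 in venous, 1657 ± 273 in arteriolar and 1290 ± 284 in capillary cells, 448 ± 89.1 in pericytes and 240 ± 40.5 in smooth muscle cells (SD, n = 6). Large arterial cells lay above venous cells in H2-D1 and below them in H2-K1 in each of the 6 mice.

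The Q and T region genes did not share 1 order. H2-Q7, the Qa-2 gene, averaged 878 ± 133 CPM in T and NK cells, 332 ± 123 in B cells, 314 ± 112 in venous, 111 ± 64.9 in capillary endothelial cells, 9.55 ± 15.3 in pericytes and 3.43 ± 3.64 in smooth muscle cells (SD, n = 6). T and NK cells were above B cells in 6 of 6 mice for both H2-Q7 and H2-Q6 (exact sign-flip permutation test, p = 0.0312, adjusted p = 0.13). H2-T23, the Qa-1 gene, was instead highest in fenestrated endothelial cells, at 499 ± 97.4 CPM, above venous cells at 356 ± 46.0 in 6 of 6 mice, and T and NK cells stood at 286 ± 36.0 (SD, n = 6). H2-T22 was lowest in microglia, at 28.3 ± 7.59 CPM, beside smooth muscle cells at 28.7 ± 3.84, and these did not differ beyond their spread (higher in smooth muscle cells in 3 of 6 mice, exact permutation p = 0.656). H2-Q4 was highest in fenestrated cells at 254 ± 86.1 CPM and lowest in smooth muscle cells at 31.5 ± 10.1. The T and NK class also held endothelial marker transcripts, at a summed 1270 to 3638 CPM over 6 markers in WT and 1591 to 5298 in TgApp ArcSwe mice. Their part in the levels of that class was not tested.

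Differences between classes were then tested within mice, with edgeR's quasi-likelihood test and Benjamini-Hochberg adjustment over all genes of each comparison. In large arterial cells, which line arteries and carry Eln and Fbln5, 9 of 10 members were higher than in capillary cells, where 24.8% of 12197 genes were. H2-Q6 differed most (log2 difference 1.56, SE 0.08, adjusted p = 2.07e-17), followed by H2-Q7 at 1.29 (SE 0.08), H2-D1 at 0.83, Psmb8 and H2-Q4 at 0.81, H2-K1 at 0.78, B2m at 0.59, Tap1 at 0.53 and H2-T22 at 0.23. H2-T23 did not pass, at -0.15 (SE 0.07, adjusted p = 0.0676), and passed as lower without filtering on low counts (-0.21, adjusted p = 0.00348). H2-T22 did not pass under that setting (0.17, adjusted p = 0.0988) or without WT replicate 1 (0.16, adjusted p = 0.116) or without the mouse as a term of the model (0.29, adjusted p = 0.145), and without TgApp ArcSwe replicate 2 or WT replicate 1 H2-T23 passed as lower (adjusted p = 0.0136 and 0.0457). The median over members was 0.80, against -0.03 over all genes tested.

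Arteriolar cells differed from capillary cells by less. Again 9 of 10 members were higher, where 21.8% of genes were, with a median of 0.31 against -0.02 over all genes. H2-Q7 was higher by 0.89 (SE 0.07) and H2-Q6 by 0.88 (SE 0.06, adjusted p = 1.66e-10 in edgeR's quasi-likelihood test), while B2m, H2-K1, H2-Q4 and Psmb8 were higher by 0.28 to 0.32. H2-T23 was at -0.04 (SE 0.04, adjusted p = 0.413). Without the mouse as a term of the model Tap1 alone still passed. B2m, H2-K1, H2-D1, H2-Q4, H2-Q6, H2-Q7, H2-T22 and Psmb8 then missed the threshold in the same direction, with adjusted p between 0.0586 and 0.45. H2-T22 also missed it without TgApp ArcSwe replicate 3 (0.13, adjusted p = 0.0514).

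In venous cells, which include the post-capillary vessels where leukocytes leave the blood, all 10 members were higher than in capillary cells, where 15.9% of genes were. The Q region pair led again, H2-Q6 at 1.73 (SE 0.12) and H2-Q7 at 1.59 (SE 0.09, adjusted p = 1.29e-21 in edgeR's quasi-likelihood test). H2-K1, at 0.89 (SE 0.06), was higher by more than H2-D1, at 0.44 (SE 0.06), the reverse of the large arterial order. Both T region genes were higher here, H2-T22 at 0.67 (SE 0.08) and H2-T23 at 0.67 (SE 0.06). Without the mouse as a term of the model H2-Q4 missed the threshold (0.62, adjusted p = 0.0932).

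Fenestrated endothelial cells, which lack the blood-brain barrier and came from 61 to 172 cells per mouse, were higher than capillary cells in all 10 members, where 19.6% of genes were. The differences lay close together, from 0.82 for B2m (SE 0.07) to 1.30 for H2-Q7 (SE 0.10), with a median of 0.91 against -0.04. H2-T23 was at 1.09 (SE 0.08, adjusted p = 6.66e-13 in edgeR's quasi-likelihood test) and H2-K1 at 1.01 (SE 0.07). WT replicate 2 stood low in this class. Its H2-Q6 was at 24.4 CPM where the other 5 mice had 103 to 189, and its H2-Q7 at 52.4 where they had 192 to 504. Erythroid marker transcripts were also uneven in this class, at 424 to 3046 CPM over 5 markers in WT and 426 to 30096 in TgApp ArcSwe mice, and their part was not tested.

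**Figure D2:**
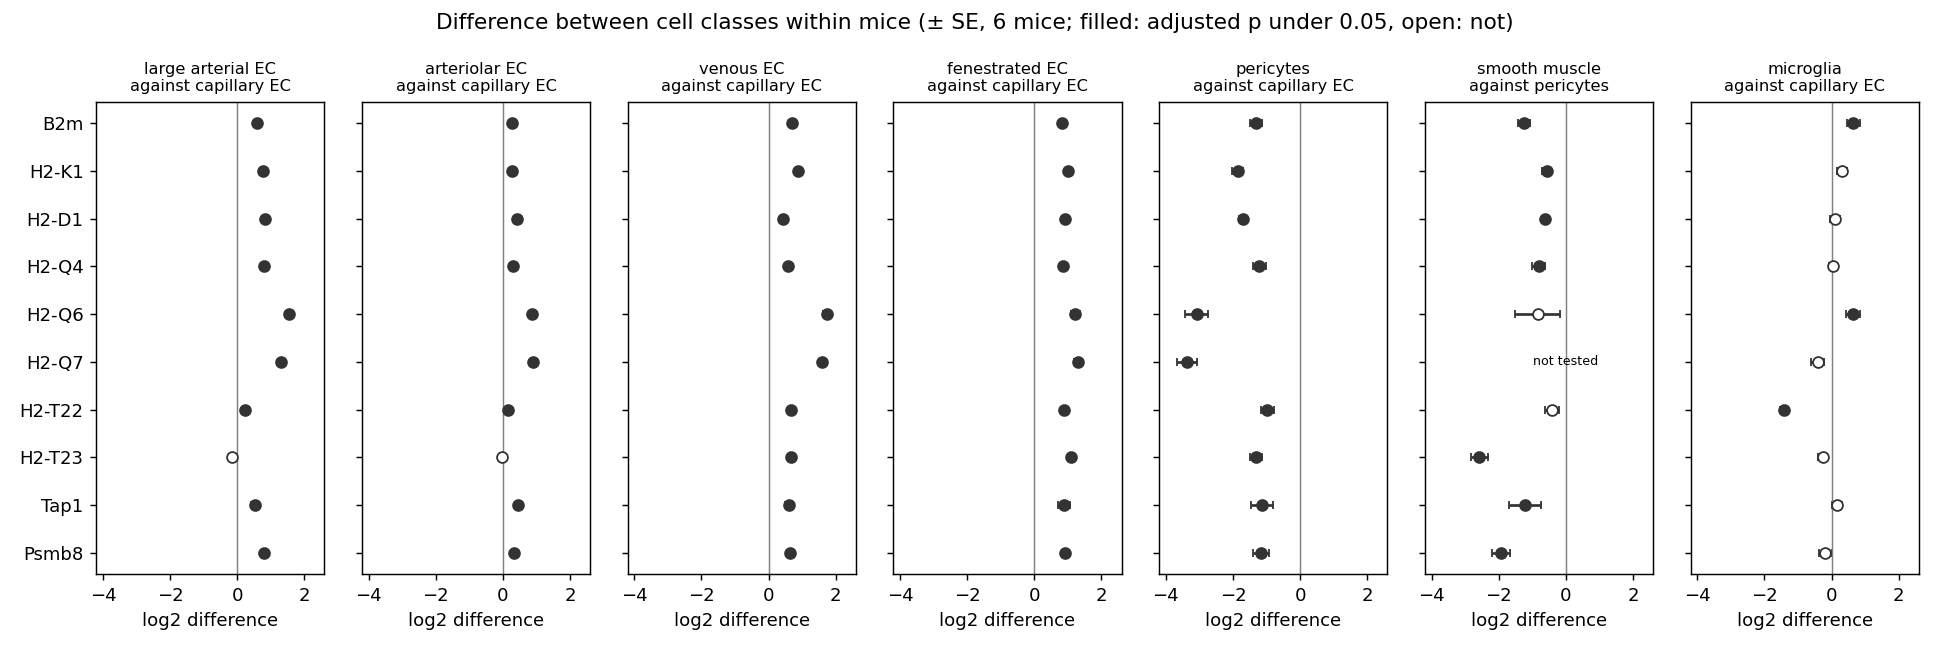
Log2 differences of the 10 class I genes between cell classes within mice, with standard errors (bars, n = 6 mice). Filled points had an adjusted p under 0.05 and open points did not. Members lie above 0 in venous and fenestrated endothelial cells against capillary cells and below 0 in pericytes against capillary cells, with H2-T23 near 0 in arterial cells (-0.15 and -0.04). The pericyte points of H2-Q6, H2-Q7 and Tap1 rest on 13, 23 and 22 UMIs in all.

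Mural cells stood low. All 10 members were lower in pericytes, the contractile cells wrapped around capillaries, than in capillary endothelial cells, where 23.5% of genes were. H2-Q6, H2-Q7 and Tap1 had only 13, 23 and 22 pericyte UMIs in all, so the count rests on the other members. H2-K1 was at -1.85 (SE 0.17), H2-D1 at -1.70 (SE 0.13), and H2-T22 at -0.98 (SE 0.19, adjusted p = 0.000202 in edgeR's quasi-likelihood test). Tap1 (-1.14) did not pass without TgApp ArcSwe replicate 3 (-0.81, adjusted p = 0.0670). Pericytes were few, 36 to 222 per mouse, and their H2-Q6 counts were 0, 0 and 0 UMIs in the WT mice and 3, 0 and 10 in the TgApp ArcSwe mice. Their H2-Q7 counts were 0, 0 and 2 UMIs against 2, 0 and 19. The tests of both genes rest on their level in capillary cells against these few UMIs, and no size is given for the difference. At 162924 to 483921 UMIs per mouse, a count of 0 still allows up to 10.6 to 18.4 CPM (3 counts per library). Smooth muscle cells were lower than pericytes in 7 of 9 members tested, where 20% of genes were, with H2-T23 at -2.58 (SE 0.25), Psmb8 at -1.93 (SE 0.27) and B2m at -1.25 (SE 0.18), and with H2-K1 and H2-D1 at -0.57 and -0.61. H2-Q6 (adjusted p = 0.354, on few UMIs in both classes) and H2-T22 (-0.41, adjusted p = 0.144) did not pass, H2-Q7 was too low to be tested, and Tap1 (-1.23, adjusted p = 0.0454) no longer passed when WT replicate 1 (adjusted p = 0.0645), TgApp ArcSwe replicate 1 (0.203) or TgApp ArcSwe replicate 2 (0.159) was left out, with no filter on low counts (0.0543), or with the stricter cell filter (0.0874).

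Microglia, the resident macrophages of the brain, were near capillary endothelial cells in most members. B2m (0.65, SE 0.19, adjusted p = 0.0099) and H2-Q6 (0.64, SE 0.21, adjusted p = 0.0191) were higher and H2-T22 was lower (-1.43, SE 0.12, adjusted p = 1.06e-06) in edgeR's quasi-likelihood test, and 7 of 10 did not pass, where 75.9% of all genes did. Without the mouse as a term H2-Q6 did not pass (0.72, adjusted p = 0.162). Without TgApp ArcSwe replicate 1, H2-Q6 did not pass (adjusted p = 0.063) and H2-Q7 passed as lower (-0.53, adjusted p = 0.0459), as H2-Q7 did without WT replicate 2 (-0.56, adjusted p = 0.022). H2-K1 passed as higher without WT replicate 3 (0.38, adjusted p = 0.0477) and with RLE normalization (0.35, adjusted p = 0.0472), and with no filter on low counts H2-Q7 (-0.52, adjusted p = 0.024) and H2-T23 (-0.37, adjusted p = 0.0477) passed as lower. H2-D1 (0.10) and H2-Q4 (0.03) were so close to 0 that their sign turned with the filter on low counts. Clusters low in ribosomal transcripts held 4407 of the 6509 microglia, and no comparison with capillary cells was run without them. In WT mice B2m was at 874 to 988 CPM in those clusters. It was at 1282 to 1942 in microglia outside them and outside a disease-associated cluster described below. H2-K1 stood at 854 to 1272 and 723 to 911.

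The other genes of the pathway were taken from lists written from general knowledge. Of 15 further antigen processing genes, which cut, carry and load peptides, 11 were higher and 1 lower in large arterial than in capillary cells, 8 and 0 in arteriolar, 11 and 0 in venous, and 11 and 0 in fenestrated cells. Of all genes tested, 24.8% were higher and 24.6% lower in large arterial, 21.8% and 20.5% in arteriolar, 15.9% and 15% in venous, and 19.6% and 20.1% in fenestrated cells. Tapbpl and Tapbp, which help load peptides, and Psmb9, an immunoproteasome subunit, were among those that differed most: Psmb9 by 0.99 (SE 0.08) in fenestrated and 0.61 (SE 0.06) in large arterial cells, and Tapbp by 0.85 (SE 0.08) and 0.76 (SE 0.06). Psmb10, the other inducible proteasome subunit, was at 0.67 (SE 0.08) in fenestrated cells. In arteriolar cells the 4 that differed most were Pdia3, Calr, Tap2 and Hspa5, by 0.34, 0.28, 0.26 and 0.19. Tap2 is the partner of Tap1 in the peptide transporter, and the other 3 are chaperones of the endoplasmic reticulum. In venous cells Tapbpl (0.63), Tapbp (0.47), Tap2 (0.45) and Psmb9 (0.40) did.

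In pericytes 0 of the 15 were higher and 9 lower than in capillary cells, with Tapbpl at -1.77 (SE 0.33), Psmb9 at -1.66 (SE 0.21), Erap1, a peptide-trimming enzyme, at -1.50 (SE 0.23) and Psmb10 at -1.05 (SE 0.19). In smooth muscle cells against pericytes 2 were higher and 6 lower, led by Psmb9 (-1.63, SE 0.31) and Psmb10 (-0.99, SE 0.24), with Calr at -0.62 and Pdia3 at -0.61. Of all genes, 19.7% were higher and 23.5% lower in the pericyte comparison and 20% each way in that of smooth muscle cells. In microglia against capillary cells 5 were higher and 7 lower, near the background of 35.7% and 40.3% of all genes, with the chaperones Hspa5 (1.96, SE 0.15), Calr (1.16, SE 0.14) and Pdia3 (1.15, SE 0.13) higher and Psmb5, the constitutive counterpart of Psmb8, lower (-1.15, SE 0.18).

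Interferon-stimulated genes did not follow the class I genes over the zones. Of 13 tested, 13 were higher in arteriolar than in capillary cells, but 3 were higher and 4 lower in large arterial, 1 higher and 10 lower in venous, and 3 higher and 9 lower in fenestrated cells, with medians of 0.41, 0.01, -0.54 and -0.84. Of 20 regulators of class I genes (transcription factors and signalling genes), 11 were higher and 5 lower in arteriolar, 7 and 6 in large arterial, 8 and 3 in venous, and 8 and 7 in fenestrated cells. Of 29 genes of the H2 complex outside antigen presentation, taken as neighbours on the chromosome, 8 were higher and 1 lower in large arterial, 8 and 3 in arteriolar, 8 and 1 in venous, and 7 and 2 in fenestrated cells, with medians of 0.10, 0.09, 0.06 and 0.08. Against the shares over all genes given above, the regulators passed in both directions in large arterial and fenestrated cells, and the neighbours' counts of higher genes lay close to the background in large arterial, arteriolar and fenestrated cells. In venous cells 8 of 29 neighbours were higher, where 15.9% of genes were. Fewer neighbours were lower than the shares over all genes, which were 24.6% in large arterial, 20.5% in arteriolar, 15% in venous and 20.1% in fenestrated cells. Of the other class I and class I-like heavy chain genes 6 or 7 could be tested, with 3 higher and 2 lower in large arterial, venous and fenestrated cells alike, and 2 and 2 in arteriolar cells.

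The makeup of the heavy chains was then compared as the classical share, the H2-K1 and H2-D1 UMIs as a percentage of the UMIs of all 7 heavy chain genes. It was 79% in capillary cells and 80.6% in large arterial cells, a within-mouse difference of 1.59 percentage points (SD 0.636, higher in 6 of 6 mice). Venous cells stood at 75%, lower by 4.01 points (difference -4.01, SD 0.584, lower in 6 of 6). Microglia stood at 83.5%, 4.53 points above capillary cells (SD 1.41, 6 of 6), and smooth muscle cells at 83.8%, 7.81 points above pericytes at 76% (SD 4.27, 6 of 6). Each of these 4 differences had p = 0.0312 in the exact two-sided sign-flip permutation test, the smallest that 6 mice allow, and adjusted p = 0.0547 over the 7 pairs, so that none passed. The differences of arteriolar (0.09, p = 0.875), fenestrated (-1.29, p = 0.156) and pericyte (-2.95, p = 0.188) shares from the capillary share varied in sign between mice in the same exact permutation test. T and NK cells had 74.3%, B cells 76.6% and other myeloid cells 86.4%.

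The venous difference rested on H2-Q6 and H2-Q7. With both left out of the share it was 0.105 points. The large arterial difference was then 4.46 points, the arteriolar 2.25, the pericyte -6.27, the microglial 4.35, and that of smooth muscle cells against pericytes 7.62, each with adjusted p = 0.0437 in the exact sign-flip permutation test. Each had the smallest unadjusted p that 6 mice allow, so the adjusted p reflects only how many pairs reached it. The microglial and smooth muscle differences were no larger than with both genes kept (4.53 and 7.81 points). Within the classical part, H2-K1 made up 38.5% and H2-D1 36.5% of heavy chain UMIs in venous cells, where capillary cells had 34.4% and 44.5%. H2-Q7 alone made up 12.0% of heavy chain UMIs in T and NK cells.

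**Figure D3:**
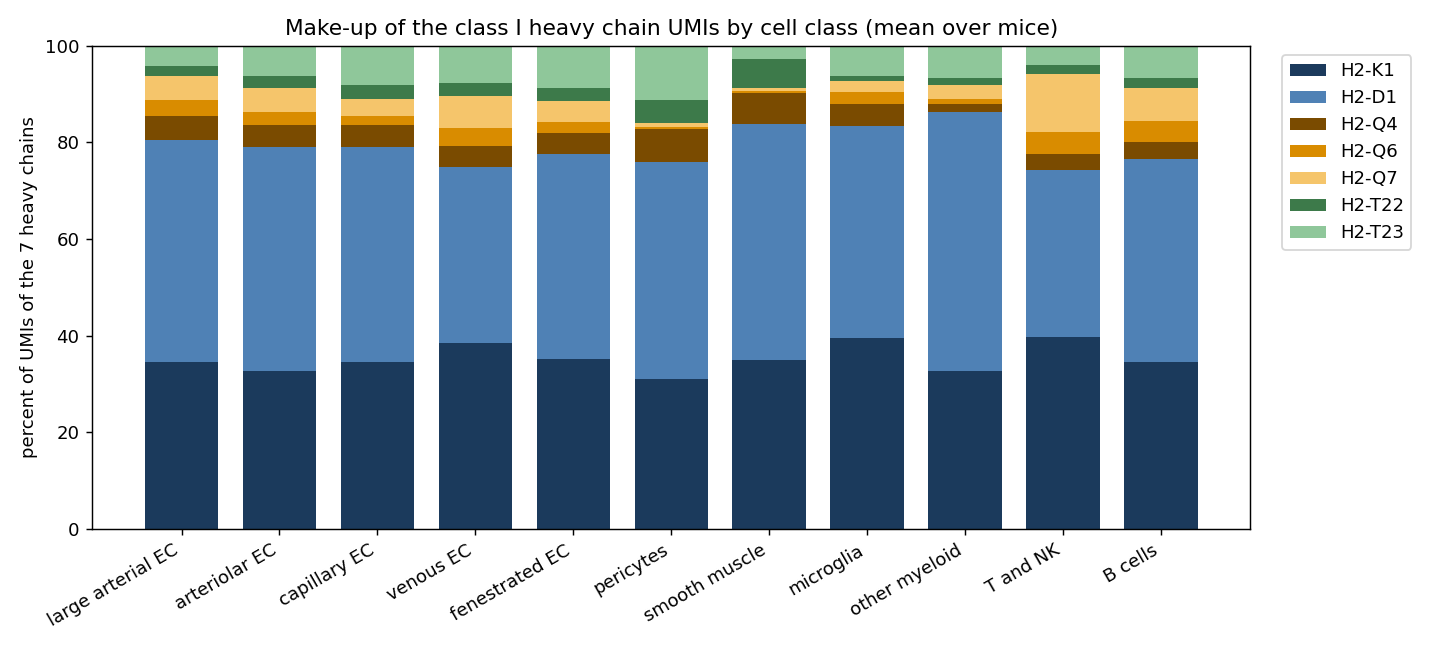
Makeup of class I heavy chain UMIs in each cell class, as the mean percentage over mice for H2-K1, H2-D1, H2-Q4, H2-Q6, H2-Q7, H2-T22 and H2-T23. The classical part runs from 74.3% in T and NK cells to 86.4% in other myeloid cells.

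The second comparison was WT against TgApp ArcSwe mice, which addresses whether brain amyloid with vascular deposits goes with other class I levels in vessel cells. In barrier endothelial cells, B2m stood at 966, 796 and 1182 CPM in the WT mice and at 1473, 1343 and 1680 in the TgApp ArcSwe mice. H2-K1 stood at 1024, 663 and 934 against 1396, 1111 and 1702, and H2-D1 at 1461, 1073 and 1150 against 1721, 1451 and 1814. The genotypes did not overlap in B2m and H2-K1 and overlapped in H2-D1, where the highest WT value passed the lowest TgApp ArcSwe value.

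The Q region genes showed wider gaps. H2-Q4 stood at 140, 108 and 90 CPM in WT and 239, 180 and 171 in TgApp ArcSwe mice. H2-Q6 stood at 58.3, 27.7 and 51.7 against 116, 87.7 and 125. H2-Q7 stood at 109, 46.2 and 114 against 194, 155 and 263. In these 3 genes the genotypes did not overlap, and WT replicate 2 was the lowest mouse for H2-Q6 and H2-Q7 as it was for B2m and H2-K1.

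The T region and processing genes differed by less. H2-T22 stood at 85.5, 59.5 and 76.2 CPM in WT and 96.7, 88.0 and 104 in TgApp ArcSwe mice, and H2-T23 at 227, 204 and 190 against 284, 263 and 228. Tap1 stood at 33.9, 22.4 and 30.4 against 37.6, 33.6 and 40.6, and Psmb8 at 178, 126 and 167 against 212, 175 and 237. Tap1 and Psmb8 overlapped between the genotypes by little.

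None of these differences passed the adjustment. The log2 fold changes in barrier endothelial cells were 0.63 for B2m (SE 0.15), 0.70 for H2-K1 (SE 0.20), 0.45 for H2-D1 (SE 0.16), 0.81 for H2-Q4 (SE 0.20), 1.27 for H2-Q6 (SE 0.25), 1.21 for H2-Q7 (SE 0.32), 0.40 for H2-T22 (SE 0.13), 0.33 for H2-T23 (SE 0.13), 0.38 for Tap1 (SE 0.14) and 0.42 for Psmb8 (SE 0.15), each with adjusted p = 0.992 in edgeR's quasi-likelihood test with Benjamini-Hochberg adjustment. That test called 0 of 13477 genes (0%). All 10 members were at an unadjusted p under 0.05, the lowest 0.00097 for H2-Q6, where 2.38% of all genes were higher at that level, and 6 of 10 had all TgApp ArcSwe mice above all WT mice after normalization, where 4.81% of genes did. The median fold change was 0.54 against -0.00 over all genes. DESeq2 called 13 genes (0.0965%), 3 of them members: H2-Q6 (adjusted p = 0.00037), B2m (0.00923) and H2-Q4 (0.0479). P-values here measure the spread between these mice, each seen in 1 library. The members are not replicates of each other. They were also chosen with earlier results of these data known, so their counts beside the shares over all genes are a description.

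The zones showed the same direction. They are parts of the barrier endothelial cells of the same mice, with 17312 of 24193 cells capillary, and are not separate evidence. In capillary cells all 10 members were higher in TgApp ArcSwe mice, by 0.31 to 1.5, all 10 at an unadjusted p under 0.05 (2.66% of genes) and 8 without overlap (5.03%), and H2-Q6 went from 40.7, 16.4 and 32.2 CPM to 91.1, 62.9 and 93.8. In arteriolar cells the median was 0.55, 9 were at an unadjusted p under 0.05 (2.15%) and 8 did not overlap (4.79%), and H2-Q6 went from 73.7, 36.8 and 64.8 CPM to 134, 137 and 156. edgeR called 0 genes in either zone (0%). DESeq2 called 4 members in capillary cells (0.11% of genes), H2-Q6, B2m, H2-K1 and H2-Q4 with adjusted p of 0.000183, 0.00696, 0.0446 and 0.0446, and 4 in arteriolar cells (0.0823%), H2-Q6, H2-Q4, H2-Q7 and H2-K1 with 1.32e-05, 0.00439, 0.00918 and 0.0450.

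In large arterial, venous and fenestrated cells, which were fewer, more members overlapped than in capillary and arteriolar cells. The largest fold changes were 0.94 in large arterial, 0.83 in venous and 1.16 in fenestrated cells, against 1.5 in capillary and 1.31 in arteriolar cells. In large arterial cells the median was 0.52, 7 members were at an unadjusted p under 0.05 (2.2% of genes) and 6 did not overlap (4.63%), and H2-Q6 went from 135, 76.0 and 115 CPM to 203, 190 and 225. In venous cells the median was 0.39, 5 were at an unadjusted p under 0.05 (1.71%) and 5 did not overlap (4.21%), with B2m at 1452, 1273 and 1513 CPM against 2046, 2312 and 2240. H2-T22 was at 0.15 (SE 0.17) there. In fenestrated cells the median was 0.60, 8 were at an unadjusted p under 0.05 (2.45%) and 2 did not overlap (4.61%). In each of these 3 classes 0 members passed with edgeR's quasi-likelihood test or with DESeq2, which called 0.0113% and 0.0113% of genes in large arterial, 0% and 0% in venous and 0% and 0.0294% in fenestrated cells. Fenestrated cells and barrier cells were also compared in the size of the fold change, in an interaction test that called 0.015% of genes. The members differed by -0.23 (SE 0.22) for H2-Q6 to 0.38 (SE 0.31) for Tap1, each with adjusted p = 1 in edgeR's quasi-likelihood test.

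**Figure D4:**
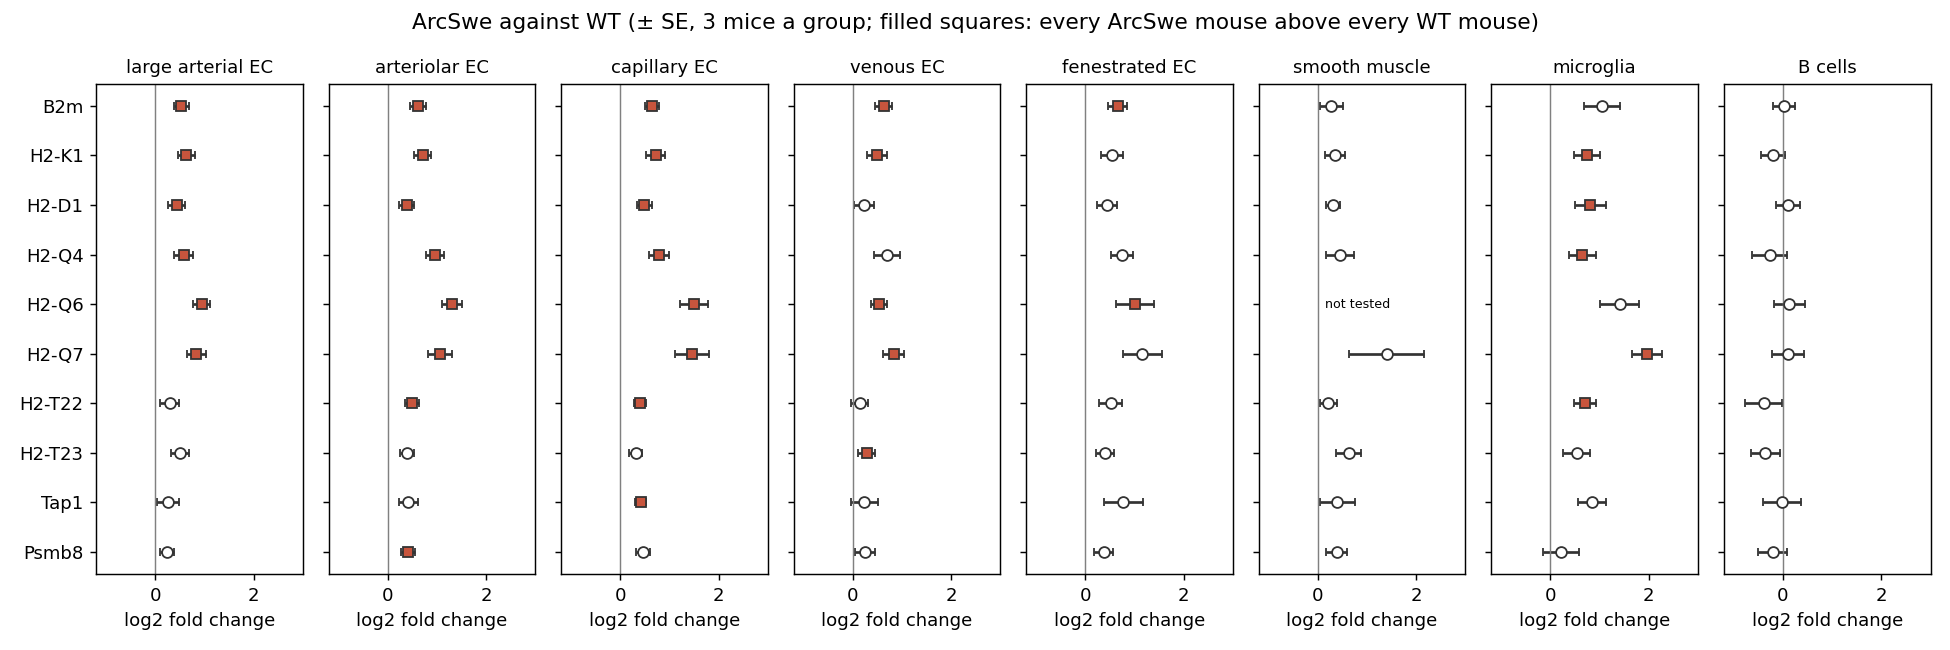
Log2 fold changes of the 10 class I genes in TgApp ArcSwe against WT mice with standard errors (bars, n = 3 mice each) in 8 cell classes. Filled squares mark genes with all TgApp ArcSwe mice above all WT mice. Endothelial zones and microglia lie above 0 in all 10 genes, while B cells scatter around 0.

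Marker transcripts of other cells were measured beside these values. In barrier endothelial cells the 5 microglial markers summed to 139 to 419 CPM in WT and 236 to 484 in TgApp ArcSwe mice, against 9062 to 11370 in microglia themselves, after 5589 of 30418 endothelial cells with a Cx3cr1 or Aif1 UMI had been left out. With those cells kept, all 10 members were still higher in TgApp ArcSwe mice. The 8 T and NK markers summed to 0.237 to 1.46 CPM in WT and 0.545 to 2.49 in TgApp ArcSwe barrier endothelial cells. Their part in the class I values was not tested.

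Per cell, thinned to 2000 UMIs, capillary cells held a mean of 3.54 to 4.88 heavy chain UMIs in WT and 5.28 to 6.93 in TgApp ArcSwe mice, and arteriolar cells 4.31 to 5.90 and 7.45 to 8.59. A UMI of H2-Q6 or H2-Q7 was found in 5.84% to 15.6% of WT and 22.1% to 34.4% of TgApp ArcSwe capillary cells. Smooth muscle cells, where these genes were near 0, had 0.279% to 0.919% and 0.538% to 2.35%, and T and NK cells 65.4% to 82.5% and 74.2% to 94.4%. Thinning left out 3027 of 17005 WT cells (17.8%) and 4702 of 18679 TgApp ArcSwe cells (25.2%) with fewer UMIs. Without thinning the capillary shares were 13.2% to 29.0% and 44.2% to 47.1%, at median depths of 3218 to 4126 and 2658 to 5382 UMIs per cell and mouse, and the smooth muscle shares 0.62% to 2.02% and 1.06% to 5.81%, at 4676 to 5782 and 4363 to 7843.

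**Figure D5:**
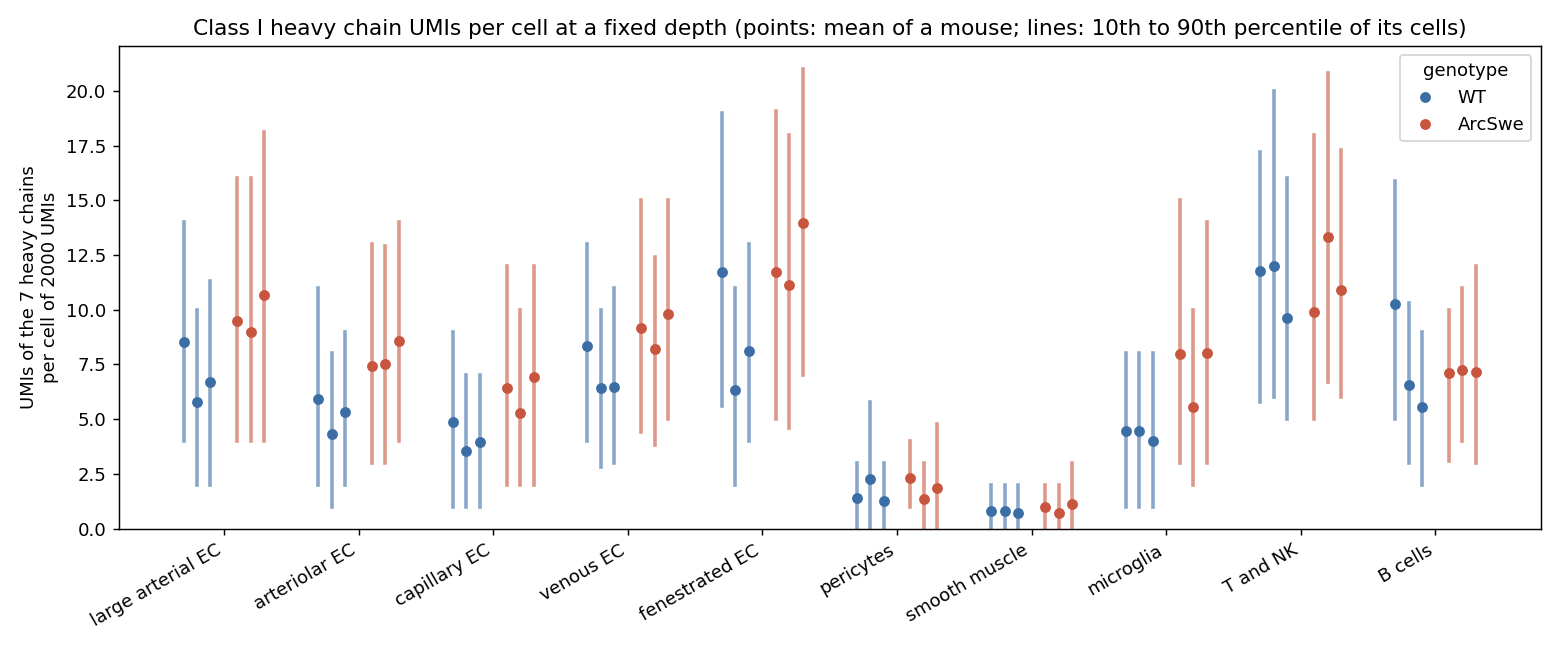
Heavy chain UMIs per cell (vertical axis) after thinning to 2000 UMIs in 10 cell classes, with points at the mean of each WT (blue) and TgApp ArcSwe (red) mouse and lines from the 10th to the 90th percentile of its cells. Mean heavy chain UMIs in capillary cells lie at 3.54 to 4.88 in WT and 5.28 to 6.93 in TgApp ArcSwe mice.

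The genotypes were also compared in mural cells. In smooth muscle cells B2m stood at 139, 123 and 233 CPM in WT and 190, 132 and 260 in TgApp ArcSwe mice, and H2-D1 at 218, 222 and 208 against 285, 209 and 299. H2-T23 stood at 11.1, 10.4 and 12.0 against 21.1, 10.8 and 17.6. In each of them the lowest TgApp ArcSwe mouse, replicate 2, lay within the WT values. Of 9 members tested there, all 9 had a positive fold change, with a median of 0.39, 1 (H2-T23, 0.63, SE 0.25) was at an unadjusted p under 0.05 (2.33% of genes) and 0 were without overlap (5.12%). edgeR's quasi-likelihood test called 0 genes (0%) and DESeq2 3 (0.0286%), none of them a member. In pericytes 6 members could be tested, 5 of them with a positive fold change, with a median of 0.13, 0 at an unadjusted p under 0.05 (1.68% of genes) and 0 without overlap (4.43%), and neither tool called a gene (0%).

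H2-Q6 was nearly silent in smooth muscle cells. It had 1, 2 and 3 UMIs in the WT mice and 11, 2 and 29 in the TgApp ArcSwe mice, out of 1290590 to 3799015 UMIs per mouse. H2-Q7 had 2, 2 and 12 UMIs against 12, 0 and 37. In mural cells as a whole (pericytes and smooth muscle cells together) all 9 members tested had a positive fold change, 0 at an unadjusted p under 0.05 (2.13% of genes) and 1 without overlap (4.52%), and edgeR called 0 genes (0%) and DESeq2 2 (0.0185%), no member among them. H2-Q6 was left out there by the filter on low counts, and without the filter its fold change was 2.83 (SE 0.65, adjusted p = 0.00561 in edgeR's quasi-likelihood test). In the filtered fits that kept it, those with a mouse left out or with the replicate number as a block, its adjusted p was 0.415 to 1. The endothelial marker sum in smooth muscle cells was 112 to 239 CPM in WT and 89.9 to 336 in TgApp ArcSwe mice and the microglial sum 109 to 391 and 161 to 396, and their part in these few UMIs was not tested. The fold changes of mural and barrier endothelial cells were compared in an interaction test, which called 0 of 13726 genes (0%). The mural fold change was smaller by 0.39 for B2m (difference -0.39, SE 0.16) and by 0.43 for H2-K1 (difference -0.43, SE 0.16) and greater for H2-Q6 (1.70, SE 0.62), each at adjusted p = 0.965 in edgeR's quasi-likelihood test. In all, 6 members had a smaller and 4 (H2-Q6, H2-Q7, Tap1 and H2-T23) a greater fold change in mural cells, and no difference passed.

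Among the classes, B2m levels in CPM spread most widely between mice in microglia. B2m stood at 1267, 1255 and 1078 CPM in the WT mice and at 2864, 1302 and 2924 in the TgApp ArcSwe mice. H2-Q7 stood at 41.4, 31.7 and 31.8 against 162, 77.6 and 142, and H2-Q6 at 53.5, 51.3 and 32.8 against 159, 53.7 and 130. TgApp ArcSwe replicate 2, with 219 microglia, lay next to the WT mice in B2m and H2-Q6 and between the genotypes in H2-Q7.

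Of the classical genes in microglia, H2-K1 stood at 930, 954 and 839 CPM against 1592, 1210 and 1554 and H2-D1 at 1074, 1062 and 875 against 2088, 1130 and 1835. Psmb8 overlapped widely, at 174, 143 and 76.8 against 170, 93.5 and 172. The fold changes were 1.96 for H2-Q7 (SE 0.31), 1.41 for H2-Q6 (SE 0.40), 1.05 for B2m (SE 0.37), 0.85 for Tap1 (SE 0.29), 0.82 for H2-D1 (SE 0.32), 0.74 for H2-K1 (SE 0.26), 0.70 for H2-T22 (SE 0.23), 0.65 for H2-Q4 (SE 0.27), 0.54 for H2-T23 (SE 0.27) and 0.21 for Psmb8 (SE 0.37). Among the members H2-Q7 came nearest to the threshold, with adjusted p = 0.0606 in edgeR's quasi-likelihood test, which called 14 of 10761 genes (0.13%). DESeq2 called H2-Q7 (adjusted p = 1.98e-06) and H2-Q6 (0.038) among 184 genes (1.71%). In edgeR, 8 of 10 members had an unadjusted p under 0.05 (7.2% of genes), 5 did not overlap (9.31%), and the median was 0.78 against -0.05.

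The number of genes called in microglia moved with each mouse left out and with the cells kept. Without WT replicate 3 edgeR called 1142 genes, H2-Q7 (adjusted p = 0.00484), Tap1 (0.0177), H2-Q6 (0.0305) and H2-T22 (0.0475) among them, and the fold change of Psmb8 was -0.05. Without TgApp ArcSwe replicate 2 it called 54 genes, H2-Q7 (adjusted p = 0.0193) among them, and without any other single mouse 2 genes and no member. Clusters low in ribosomal protein transcripts (a median share under 3%) were kept here, while the study removed such a cluster from its microglia. They made up 26.5%, 32.4% and 94.9% of microglia in the WT mice and 70.8%, 94.5% and 80.0% in the TgApp ArcSwe mice. Without them edgeR called 489 genes, with H2-Q7 (adjusted p = 0.00165), B2m (1.32, adjusted p = 0.0242), H2-T22 (0.0282) and Tap1 (0.0493) past the threshold. The cells then left numbered 733, 585 and 71 in the WT mice and 295, 12 and 406 in the TgApp ArcSwe mice. Cells of a cluster with the transcripts of disease-associated microglia, the reactive state known from plaques, numbered 4, 3 and 20 in the WT mice and 130, 6 and 378 in the TgApp ArcSwe mice, all of them among the cells left. The genotypes thus differed in the clusters that made up the 489-gene comparison, and the part of this in its calls was not tested. In the microglia outside it H2-Q7 was at 30.6 to 41.2 CPM in WT and 77.6 to 139 in TgApp ArcSwe mice, and B2m at 1019 to 1261 and 1109 to 1928. Within the clusters low in ribosomal transcripts alone, H2-Q7 was at 32.2 to 48.5 CPM in WT and 75.1 to 146 in TgApp ArcSwe mice.

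The interaction test of microglia against barrier endothelial cells called 0 of 14234 genes (0%), and the fold changes of the members differed by -0.25 to 0.54, with adjusted p from 0.642 to 0.997 in edgeR's quasi-likelihood test. Without WT replicate 3 it called 290 genes. The standard errors of these differences were 0.23 to 0.42.

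Lymphocytes gave no shift in 1 direction. In T and NK cells B2m stood at 1996, 2271 and 2193 CPM in WT and 2278, 2542 and 2200 in TgApp ArcSwe mice, and H2-Q7 at 749, 760 and 1005 against 762, 1020 and 969. Both genes overlapped. Of the 10 members 5 were higher and 5 lower in T and NK cells (median -0.00, 1 without overlap, 4.24% of genes, which was H2-T23) and 4 higher and 6 lower in B cells (median -0.11, 0 without overlap, 4.3%), and 0 were at an unadjusted p under 0.05 (2.6% of genes in T and NK cells, 1.53% in B cells). edgeR and DESeq2 called 0.0619% and 0.0929% of genes in T and NK cells and 0% in B cells, no member among them. With 22 to 74 T and NK cells and 27 to 136 B cells per mouse, the standard errors of the members were 0.21 to 0.39 and 0.22 to 0.39. In other myeloid cells, compared in 3 WT and 2 TgApp ArcSwe mice since replicate 2 had 4 such cells, 9 of 10 were higher, with a median of 0.21, 0 at an unadjusted p under 0.05 (1.33% of genes), 1 without overlap (9.58%) and 0% of genes called by edgeR or DESeq2.

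Among the listed pathway genes 1 was called by genotype in any class: Ifit1, an interferon-stimulated gene, in microglia (log2 fold change 3.02, SE 0.35, adjusted p = 0.0285 in edgeR's quasi-likelihood test). Interferon-stimulated genes had positive fold changes in 13 of 13 cases in barrier endothelial cells (median 0.38), and all 12 tested in microglia were positive too (median 1.98). The other antigen processing genes were higher in 12 of 15 cases in barrier endothelial cells, with a median of 0.14, while microglia had 8 of 15 higher and a median of 0.02. Both medians were nearer to 0 than those of the members. Regulators were higher in 16 of 20 cases in barrier endothelial cells (median 0.10). The 29 neighbours in the H2 complex had medians of 0.04 in barrier endothelial cells and -0.12 in microglia.

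The 13 classes compared next share mice, and barrier endothelial and mural cells contain others of them, so their count is a description. The classical share by genotype was lower in TgApp ArcSwe mice in 12 of 13 classes, with overlap in most. It went from 80.7% ± 0.558 to 77.4% ± 1.67 in arteriolar cells (difference -3.38 points) and from 75.9% ± 0.394 to 74.0% ± 1.42 in venous cells (-1.96 points; SD, n = 3 each), and in these 2 the mice did not overlap (p = 0.1 in the exact permutation test, two-sided, below which 3 against 3 mice cannot go, and adjusted p = 0.325 over 13 classes). In barrier endothelial cells it went from 79.9% to 77.9% and in microglia from 84.0% to 83.0%. With H2-Q6 and H2-Q7 left out the sign turned in both, to 0.460 and 1.45 points.

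Over all 65 sums of a class in a mouse, the log2 levels of the members correlated with each other at r = 0.631 to 0.969, with a median of 0.847 over 45 pairs. The sums share mice, depth and class, so that these values are a description. Among the members, Psmb8 (0.94) and H2-Q7 (0.94) were most like the mean of H2-K1, H2-D1 and B2m, and H2-K1 (0.96) and H2-D1 (0.93) most like the mean of the Q region genes. Of 11515 genes with a mean of at least 5 CPM, those outside the members that were most like the mean of H2-K1, H2-D1 and B2m were Srgn (0.92), Psmb9 (0.92), Ly6e (0.89), H2-M3 (0.89) and Slfn2 (0.89). Outside the members, those most like the Q region genes were Gimap5 (0.87), Ly6e (0.87), S1pr4 (0.86), Il2rg (0.86) and Psmb9 (0.86).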

How the data were processed

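Raw UMI counts per gene and cell were deposited by the authors for 3 WT and 3 TgApp ArcSwe mice, made with Cell Ranger 7.0.0 against mm10 per the submitters' processing notes. The counts were not normalized, and the deposited cells precede the study's filter. Cells with 500 to 4500 genes and under 10% mitochondrial counts were kept. The 2000 most variable genes, without antigen presentation genes, gave 30 principal components and a graph over 20 neighbours, clustered with leidenalg 0.10.2 (resolution 1, seed 1). Clusters were named when at least 3 fixed markers were detected in at least 10% of cells. Endothelial cells with a Cx3cr1 or Aif1 UMI were left out, as in the study, and no doublet caller was run beyond leaving clusters with markers of several types unnamed. The study also removed a microglial cluster low in ribosomal and high in mitochondrial genes. Clusters low in ribosomal transcripts, 4407 of 6509 microglia, were kept here in the main microglial class and left out in an alternative. Ribosomal protein, mitochondrial, pseudo- and Rik genes (2914) were removed, as in the study.

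Counts were summed per mouse and class with at least 10 cells, at 73550 to 20196743 UMIs per tested sum, passed through filterByExpr and scaled by TMM. The test was edgeR's quasi-likelihood F test (version 4.0.16, under R 4.3.3), with calls at adjusted p under 0.05 after Benjamini-Hochberg. Genotype was the only term between mice. Comparisons of classes and interactions had the mouse as a block. SEs are the fold change over the root of F. DESeq2 1.42.0 was the alternative, along with RLE normalization, no filter on low counts, a stricter cell filter, clustering at resolution 2, genes kept, and each mouse left out. The Python (3.11.15) packages were pandas 2.3.3, scikit-learn 1.9.0, igraph 0.11.9, scipy 1.17.1 and numpy 2.4.6, and the tests were tried on simulated data. CPM are over the kept genes and not scaled by TMM, while overlap of mice is judged after TMM. Limits given for a count of 0 cover counting error only. Levels of different genes are not divided by length, since 3′ libraries count 1 tag per transcript.

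The members and lists were chosen with earlier results of these data known. Named were all members, up to 5 listed genes per class past the threshold by genotype, up to 4 antigen processing genes per class comparison, and the 5 genes most like each set of heavy chains.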

Additional observations from a re-analysis of the deposited data

How the results depend on the processing

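The number of genes called by genotype in microglia was 14 and became 37 with RLE normalization, 184 with DESeq2, 259 with no filter on low counts, 33 with the stricter cell filter, 489 without the clusters low in ribosomal transcripts, and 2 to 1142 with 1 mouse left out. In barrier endothelial cells DESeq2 called 13 where edgeR called 0, and in mural cells it called 2 and edgeR with no filter 79, where the filtered test called 0. With 1 mouse left out, 1 to 2 genes were called in large arterial cells, 0 to 1 in fenestrated cells, pericytes, and T and NK cells, and 0 to 2 in other myeloid cells. The interaction tests then called 0 to 290 genes for microglia, 0 to 1 for mural cells and 2 to 61 for fenestrated cells. The cause of these shifts was not tested.

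Of the member fold changes by genotype in barrier endothelial, mural and microglial cells, all 29 stayed positive under each alternative, except Psmb8 in microglia without WT replicate 3 (-0.049, range over left-out mice -0.049 to 0.50). H2-Q7 in microglia passed with RLE normalization (adjusted p = 0.0431), DESeq2, no filter (7.13e-05) and the stricter cell filter (0.0274), and H2-Q6 with DESeq2 (0.038) and no filter (1.35, adjusted p = 0.016). Between microglia and capillary cells H2-D1 turned to -0.011 and H2-Q4 to -0.074 with no filter, and H2-Q4 to -0.045 without WT replicate 2 (range -0.045 to 0.10).

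With H2-Q6 and H2-Q7 left out, the differences in classical share were 4.46 (large arterial), 2.25 (arteriolar), 0.105 (venous), -6.27 (pericytes), 7.62 (smooth muscle cells against pericytes) and 4.35 points (microglia), and by genotype 0.460 in barrier endothelial cells, 1.04 in capillary cells, 1.45 in microglia and 0.414 in other myeloid cells. Over left-out mice the arteriolar difference ranged from -0.366 to 0.314, that by genotype in other myeloid cells from -1.56 to 1.22, and in B cells from -1.34 to 2.34.

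With the replicate number as a block, 36 genes were called by genotype in microglia, H2-Q7 among them (adjusted p = 0.0498), and no other member call changed. Same-numbered mice correlated at -0.098 to 0.362 in their deviations, and mice of different numbers at -0.355 to 0.282. These ranges overlap and rest on few mice, so the check cannot tell whether the numbers pair the mice. Without the mouse as a block, 2921 genes differed between arteriolar and capillary cells in place of 5265. Perivascular macrophages (45 cells) were too few for their planned tests, and other myeloid cells were added after seeing the data. Pericytes, lymphocytes and venous cells are limited by their few cells.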

Other observations

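A cluster of 541 microglia carried transcripts of disease-associated microglia, the reactive state found around plaques, and is called DAM-like here. It had at least 10 cells in WT replicate 3, TgApp ArcSwe replicate 1 and TgApp ArcSwe replicate 3, and is compared with the other microglia of the same mouse as a description, since the cells were clustered on their own transcripts. B2m stood at 2242 CPM in the DAM-like cluster and 1019 in other microglia of WT replicate 3, at 4817 and 1928 in TgApp ArcSwe replicate 1, and at 4491 and 1765 in TgApp ArcSwe replicate 3. H2-D1 was higher in the DAM-like cluster in all 3 mice, by 1.20, 0.90 and 0.72 on the log2 scale, and so was Psmb8, by 0.81, 1.09 and 1.17. The other classical gene, H2-K1, differed by 0.11, 0.16 and 0.19 only, and H2-Q6 by -0.60, 0.10 and -0.09. H2-T22 was higher by 0.87, 0.90 and 0.67. In WT replicate 3 the DAM-like cluster was 20 cells, with 4 UMIs of H2-T22 and 2 of H2-Q6. Clusters low in ribosomal transcripts made up 94.9%, 70.8% and 80.0% of the microglia of these 3 mice. Against other microglia outside them, Psmb8 of the DAM-like cluster was lower in WT replicate 3 (131 against 144 CPM). It was lower in TgApp ArcSwe replicate 3 (252 against 262) and higher in replicate 1 (266 against 188). H2-T22 went the same ways, at 43.5 against 45.2, 47.9 against 81.7 and 56.3 against 30.7. B2m of WT replicate 3 was at 2242 against 1942.

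Among microglia outside the DAM-like cluster and outside the clusters low in ribosomal transcripts, B2m was at 1282 to 1942 CPM in 3 WT mice and 2320 to 2550 in 2 TgApp ArcSwe mice. H2-Q7 was at 20.5 to 41.4 and 132 to 172 CPM and H2-Q6 at 50.7 to 53.4 and 127 to 155. H2-T22 was at 20.6 to 45.2 and 30.7 to 81.7 CPM and H2-T23 at 131 to 166 and 147 to 191, with the genotypes overlapping. TgApp ArcSwe replicate 2, with 6 such cells, is not in these ranges. It had B2m at 2047 CPM, 4 UMIs of H2-Q7 and 0 of H2-Q6. No test was run.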
